A study of Mus musculus with 4 samples.

Results

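The genes examined encode nucleoporins, importins, exportins and the regulators of the Ran cycle, the machinery that carries proteins and RNA between nucleus and cytoplasm. They were chosen by gene symbol, and each had to reach 10 normalized counts in at least 2 of the 4 libraries. A total of 50 of the 29011 rows had such a symbol and 49 met the level, which made 49 genes. The excluded gene was Kpna7, an importin alpha of oocytes and early embryos, at 10.4 and 2.29 normalized counts in the controls and 1.85 and 1.81 in the Lats1/2 KO libraries. Just inside lay Nup210l, with 6.21 and 11.4 in the controls and 14.8 and 6.33 in the knockouts. Nup62cl met the level through its Lats1/2 KO libraries, so its difference between the groups was partly fixed by the choice.

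Total RNA was taken from unfractionated small intestine of mice on postnatal day 8, with 2 control and 2 Lats1/2 KO samples. The KO samples are labelled VilCre+ and Lats1/2-/-, and Villin-Cre is active in the intestinal epithelium, while the remaining cells of the tissue keep the floxed genes. For the controls the design text gives floxed Lats1 and Lats2 without Cre, whereas their genotype label gives VilCre- and Lats1/2-/-. A lower share of a cell type and less RNA per cell cannot be told apart. LATS1 and LATS2 are the Hippo pathway kinases that restrain the co-activators YAP and TAZ.

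The nuclear pore is a ring-shaped channel in the nuclear envelope, built from many copies of its nucleoporins, which are arranged in an outer ring, an inner ring, a central channel, cytoplasmic filaments and a nuclear basket. Importins bind cargo in the cytoplasm and release it in the nucleus when they meet Ran bound to GTP, and exportins bind cargo together with Ran-GTP and release it in the cytoplasm. Dividing and growing cells, such as those of the intestinal crypt, need new pores and carriers for the new nuclei.

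Libraries held 25135964 to 27811313 reads in the controls and 30517967 to 32361940 in the knockouts, recovered from the normalized counts. Lats1 was at 2316 and 2560.2 normalized counts in the controls and at 751 and 661 in the knockouts (log2 change -1.79, adjusted p = 0.00055). Lats2 did not pass (log2 change -0.03, 95% interval -0.34 to 0.28). The counts of both genes cover the whole gene, and the deleted part was not read separately for either. Among 8 epithelial markers, Epcam, Cdh1, Vil1 and Cldn7 had log2 changes of -0.04, 0.13, 0.06 and -0.06, and none of these passed the test. The other 4, the keratins Krt8, Krt18, Krt19 and Krt20, rose by log2 changes of 1.34, 1.52, 0.95 and 1.23.

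Most of the transport genes were slightly higher in the Lats1/2 KO samples. Of 49 genes 30 rose, 1 fell and 18 did not pass the test at an adjusted p of 0.05 by limma, against 15.2% of all 16415 tested genes that rose and 12.3% that fell. The 30 genes are 61.2% of the list. The sizes were small, with a median log2 change of 0.32, beside a median of -0.00148 over all tested genes. The middle of the list, from the lower to the upper quartile, ran from 0.21 to 0.42, and that of all tested genes from -0.31 to 0.26. Nup62cl was the 1 gene with at least a 2-fold change, beside 4.23% of all tested genes that rose as much, and without it 29 of 48 rose, by 1.17-fold to 1.59-fold. All 18 genes that did not pass had a log2 change above 0, beside 49.8% of all tested genes, though that of Nup35 was only 0.00311.

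**Figure D1:**
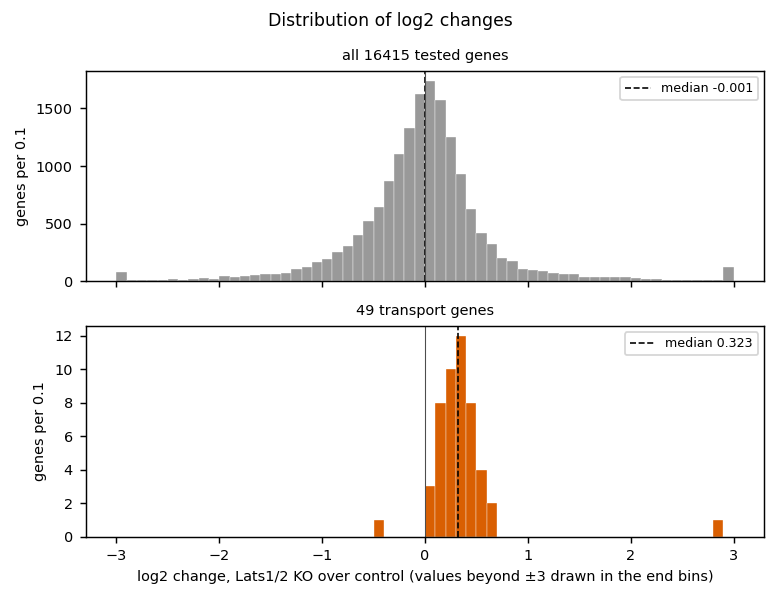
Histograms of the log2 change (Lats1/2 KO over control, x axis) for all 16415 tested genes (top) and the 49 transport genes (bottom), with the number of genes per bin of 0.1 on the y axis and the median as a dashed line. The transport genes sit in a narrow band around a median of 0.32, with Ipo8 to the left of 0 and Nup62cl at the far right.

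Both Lats1/2 KO libraries lay above both control libraries for 46 of the 49 genes, beside 34.9% of all tested genes, and below them for 1 gene, beside 33.4%. The groups overlapped for the other two, Nup35 and Nup210l. The transport genes summed to 83251 and 83515 normalized counts in the controls, with 102125 and 101589 in the knockouts, a 1.22-fold difference. Most were well expressed: 44 of 49 were at or above the median level of tested genes, 413 normalized counts, and among genes at or above that level 22% rose and 13.3% fell. The authors' deposited table had 22 of the 49 genes higher and 1 lower at an adjusted p of 0.05, against 12.8% and 10.2% of the genes that table gives an adjusted p.

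The number of calls depended on the libraries and the genes tested. Without Lats1/2 KO replicate 1 only 5 genes rose and 0 fell (6.27% and 5.26% of all tested genes), and without replicate 2 the numbers were 6 and 0 (5.53% and 5.85%). Without control replicate 2 there were 19 genes that rose, and without a filter on low values 14, beside 13% and 5.94% of all genes fitted. DESeq2 on the recovered reads called 22 higher, beside 12.9%. The median log2 change stayed between 0.30 and 0.33 in the 12 alternative fits. Kpnb1, Xpo5 and Xpot were called under all of them. So was Nup62cl, which met the filters on level through its Lats1/2 KO libraries, so its calls were partly fixed by the choice.

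**Figure D2:**
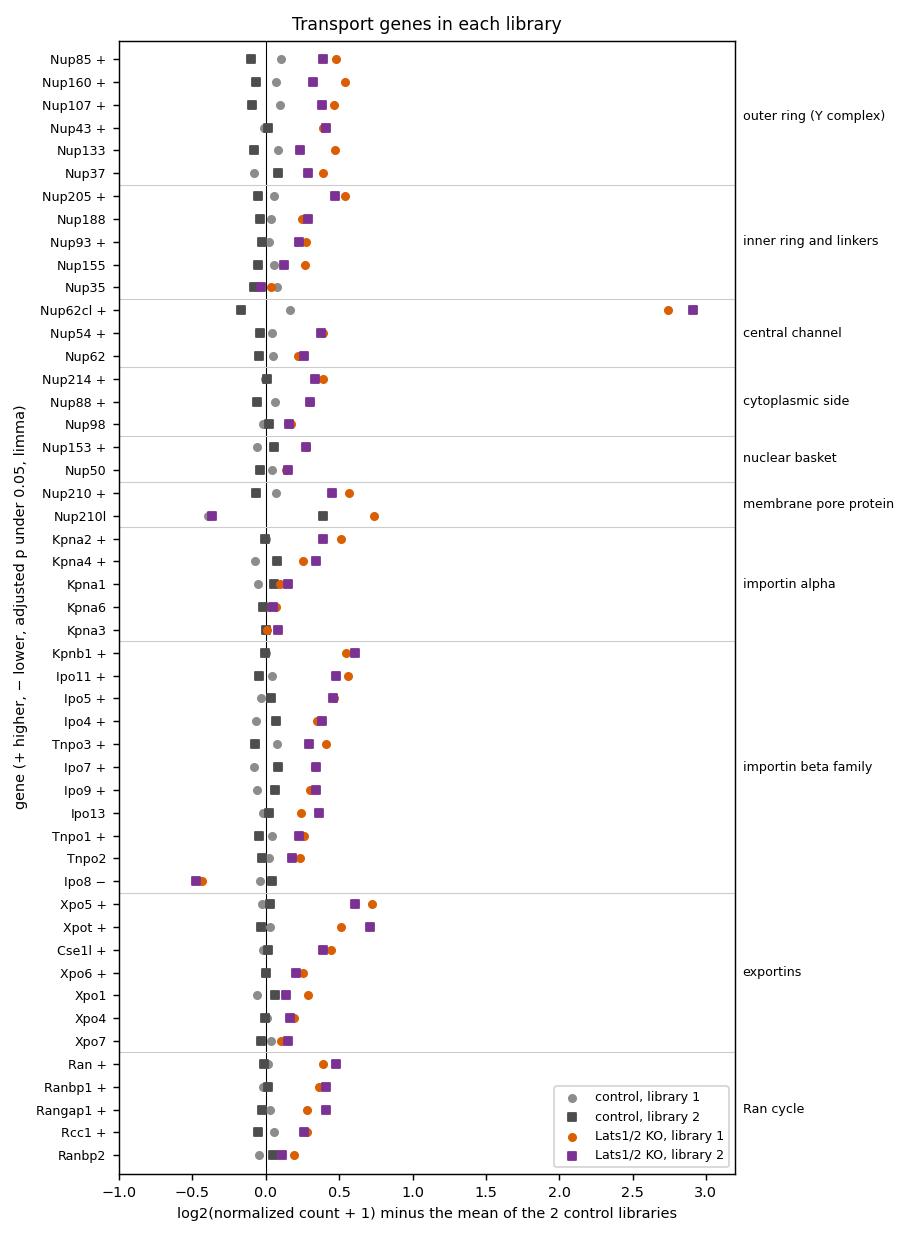
Level of each of the 49 genes in each library, as log2(normalized count + 1) minus the mean of the 2 control libraries (x axis), with genes on the y axis grouped by role. The knockout points (orange and purple) lie to the right of the control points (grey) in 46 genes and to the left for Ipo8, and a plus or minus sign marks genes that passed the test.

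The outer ring of the pore, also called the Y complex, had 6 measured members with a Nup symbol. Of these, 4 rose, Nup85, Nup107, Nup160 and Nup43, and 2 did not pass (median log2 change 0.41). Sec13 and Seh1l, outer ring proteins without such a symbol, had log2 changes of -0.10 and 0.01 and did not pass. They are left out of this count and median, which therefore do not describe the whole complex. Outer ring proteins form the scaffold on both faces of the pore and are the first to assemble on chromatin after mitosis. Nup85 was at 813 and 706 normalized counts in the controls and at 1055 and 992 in the knockouts, a 1.35-fold rise (log2 change 0.43 ± 0.10 SE, adjusted p = 0.026). Nup107 went from 774 and 678 to 999 and 943, 1.34-fold (log2 change 0.42 ± 0.10 SE). Nup160 was at 801 and 727 in the controls and at 1111 and 954 in the knockouts, 1.35-fold. In each of these genes the lower knockout library was above the higher control library. Nup43 rose 1.32-fold. It ends 2332 bases upstream of the start of Lats1 on chromosome 10, so it is a direct neighbour of a targeted gene. Nup133 and Nup37, with log2 changes of 0.35 and 0.34, had adjusted p of 0.0734 and 0.0678.

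The inner ring anchors the channel to the membrane and the scaffold. It rose in 2 of 5 members, and 3 did not pass (median 0.25). Nup205, one of its large scaffold proteins (ENSMUSG00000038759, chromosome 6, 35177421 to 35247596, plus strand of GRCm38), was at 1459 and 1356 normalized counts in the controls and at 2047 and 1946 in the knockouts. It rose 1.42-fold (log2 change 0.50 ± 0.07 SE, adjusted p = 0.00719). Without Lats1/2 KO replicate 1 or replicate 2 in turn its adjusted p ran from 0.0454 to 0.0613. Nup93, which links the channel proteins to the ring, went from 1116 and 1079 to 1326 and 1286, 1.19-fold with an adjusted p of 0.0452. Nup188, the paralog of Nup205, did not pass (log2 change 0.26, adjusted p = 0.0584) and neither did Nup155 (log2 change 0.20, adjusted p = 0.147). Nup35, at 120.1 and 107 in the controls and 117 and 111 in the knockouts, had a log2 change of 0.00311 (95% interval -0.39 to 0.39).

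In the central channel group Nup62cl and Nup54 rose and Nup62 did not pass. Nup62 and Nup54 carry the phenylalanine-glycine repeats that form the permeability barrier, and whether Nup62cl carries them was not examined. Nup62cl, named for its likeness to the C-terminal part of Nup62 (ENSMUSG00000072944, chromosome X, 140006805 to 140062712, minus strand), had 10 and 7 reads in the controls and 72 and 83 reads in the knockouts. As normalized counts these were 10.4 and 8.00 against 66.6 and 75.0, a 7.09-fold rise on the log2(value + 1) scale (log2 change 2.83 ± 0.27 SE, adjusted p = 0.00221). Nup62cl met the level for inclusion through its Lats1/2 KO libraries, so this test is not independent of the choice. Its level was low throughout: per kb of exon it stood at 31.7 normalized counts in the knockouts, where Nup62 stood at 443. Nup54 went from 450.3 and 425 to 574 and 568, 1.30-fold (adjusted p = 0.0273), and Nup62 did not pass (log2 change 0.24, adjusted p = 0.0619).

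On the cytoplasmic side Nup214 and Nup88, partners in a complex that receives exportins and messenger RNA, rose and Nup98, which lies on both faces, did not pass. Nup214 was at 625 and 629.8 normalized counts in the controls and at 823 and 792 in the knockouts, 1.29-fold (adjusted p = 0.0217). Nup88 went from 1202 and 1103 to 1418 and 1419, 1.23-fold (adjusted p = 0.0352). Nup98 did not pass (log2 change 0.16, adjusted p = 0.102). In the nuclear basket Nup153 rose 1.21-fold, from 1579.6 and 1714 to 1989 and 1985 (adjusted p = 0.0401), while Nup50 did not pass (log2 change 0.14, adjusted p = 0.155). Of the membrane proteins, Nup210 rose 1.42-fold, from 541 and 494 to 767 and 708 (log2 change 0.51 ± 0.09 SE, adjusted p = 0.0149). Its relative Nup210l was close to the limit of detection, with a 95% interval of the log2 change from -1.15 to 1.52.

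Of the 21 nucleoporins with a Nup symbol 12 rose, 0 fell and 9 missed the threshold, at a median log2 change of 0.34. None of the 21 log2 changes was below 0, but those of Nup35 and Nup210l turned below 0 in 4 of 12 and 2 of 11 alternative fits, the stricter filter leaving out Nup210l. Pore proteins without such a symbol were read from a second list. It held 12 tested genes, of which 5 rose, 0 fell and 7 missed the threshold (median 0.24). The 41.7% that rose stand beside 15.2% of all tested genes and 22% of those at or above the median level. The sum of this list overlapped between the groups, at 26493 and 24964.5 normalized counts in the controls and 27052 and 26390 in the knockouts. Rae1, an mRNA export factor that binds Nup98, went from 904 and 814 normalized counts to 1311 and 1199, 1.46-fold (adjusted p = 0.0106). Ahctf1, which seeds pores on chromatin, rose 1.29-fold (adjusted p = 0.0117). Sec13 and Seh1l, outer ring proteins that also act in other complexes, had log2 changes of -0.10 and 0.01 and did not pass. Nupl1 has 2 rows under 1 symbol, and the more abundant row was used.

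The importin alpha adaptors recognise classical nuclear localisation signals and hand the cargo to Kpnb1. Of the 5 adaptors, 2 rose and 3 did not pass (median 0.13). Kpna2, the form most tied to proliferating cells, was at 1186 and 1181 normalized counts in the controls and at 1689 and 1553 in the knockouts, 1.37-fold (log2 change 0.45 ± 0.07 SE, adjusted p = 0.0102). Kpna4 went from 2813 and 3126 to 3544 and 3751, 1.23-fold (adjusted p = 0.0413). Kpna1, Kpna3 and Kpna6 had log2 changes of 0.13, 0.04 and 0.06 with 95% intervals reaching 0.30, 0.20 and 0.21. Per kb of exon, Kpna2 made up 23.0% and 22.4% of the 5 adaptors in the controls and 28.0% and 25.7% in the knockouts. Kpna3 made up 25.2% and 24.5% in the controls and 21.6% and 22.7% in the knockouts. Per kb, Kpna2 thus stood below Kpna3 in both controls and above it in both knockouts. This order rests on the annotated exon lengths. In normalized counts Kpna2 stayed below Kpna3, which was at 1943 and 1938 in the controls and at 1949 and 2051 in the knockouts.

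The importin beta family had 8 of 11 members that rose, 1 that fell and 2 that did not pass (median 0.34). Kpnb1, importin beta itself (ENSMUSG00000001440, chromosome 11, 97159714 to 97187881, minus strand), had an adjusted p of 0.003, the smallest after that of Nup62cl. It was at 5616 and 5584 normalized counts in the controls and at 8196 and 8528 in the knockouts, 1.49-fold (log2 change 0.58 ± 0.06 SE). Ipo5, a carrier of ribosomal proteins and histones, went from 3172 and 3335 to 4494 and 4463, 1.38-fold (adjusted p = 0.00594). Ipo11, which imports ubiquitin-conjugating enzymes, was at 671 and 629.8 in the controls and at 959 and 907 in the knockouts, 1.43-fold (adjusted p = 0.00908). The other members that rose were Ipo7, Ipo4, Tnpo3 (the carrier of SR splicing factors), Ipo9 (a histone carrier) and Tnpo1 (the carrier of hnRNP proteins), by log2 changes of 0.34, 0.36, 0.35, 0.32 and 0.24. Ipo13 and Tnpo2 had log2 changes of 0.30 and 0.21 with adjusted p of 0.0524 and 0.0721.

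Ipo8 was the 1 transport gene that fell. It was at 3745 and 3964 normalized counts in the controls and at 2849.7 and 2775 in the knockouts, a 1.37-fold fall (log2 change -0.45 ± 0.06 SE, adjusted p = 0.00677). Ipo8 (ENSMUSG00000040029, chromosome 6, 148770683 to 148831467, minus strand) is the closest relative of Ipo7, which was at 3575 and 4003 in the controls and at 4770.4 and 4794 in the knockouts, 1.26-fold (adjusted p = 0.0269). The ratio of Ipo7 to Ipo8 was 0.955 and 1.01 in the controls and 1.67 and 1.73 in the knockouts. For the related pair Tnpo1 and Tnpo2 the ratio was 3.82 and 3.72 in the controls and 3.83 and 3.90 in the knockouts. How reads that match both members of a pair were counted is not given in the sources used here. Without either Lats1/2 KO library the adjusted p of Ipo8 was 0.051 to 0.0614.

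Of 7 exportins 4 rose and 3 did not pass (median 0.23). Xpo5, which exports precursor microRNAs (ENSMUSG00000067150, chromosome 17, 46202782 to 46243598, plus strand), was at 667 and 691 normalized counts in the controls and at 1120.4 and 1036 in the knockouts. It rose 1.59-fold (log2 change 0.67 ± 0.08 SE, adjusted p = 0.00415). Xpot, the exporter of transfer RNA, went from 1818 and 1739.6 to 2542 and 2903, 1.53-fold (log2 change 0.61 ± 0.08 SE, adjusted p = 0.00645). Cse1l, which returns importin alpha to the cytoplasm, was at 1875 and 1922 in the controls and at 2584 and 2489 in the knockouts, 1.34-fold (adjusted p = 0.00821). In these 3 genes the gap between the groups was wider than the gap between the libraries of either group. Xpo1, the general exporter of proteins with leucine-rich export signals, had 3706 and 4029 in the controls and 4711 and 4243 in the knockouts, a log2 change of 0.21 (adjusted p = 0.114). Xpo6, which exports actin with profilin, rose 1.17-fold (adjusted p = 0.0461). Xpo4 and Xpo7 had log2 changes of 0.18 and 0.13 and did not pass.

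The Ran cycle sets the direction of transport, with Rcc1 loading Ran with GTP in the nucleus and Rangap1 triggering its hydrolysis in the cytoplasm. Of 5 genes 4 rose and Ranbp2 did not pass (median 0.35). Ran (ENSMUSG00000029430, chromosome 5, 129020069 to 129024323, plus strand) was at 3190.2 and 3123 normalized counts in the controls and at 4141 and 4401 in the knockouts, 1.35-fold (log2 change 0.44 ± 0.06 SE, adjusted p = 0.00779). Ranbp1, a cofactor of Rangap1, went from 2206 and 2258 to 2869 and 2970.1, 1.31-fold (adjusted p = 0.00979). Rangap1 was at 1982 and 1909 in the controls and at 2368 and 2584 in the knockouts, 1.27-fold (adjusted p = 0.0217). Rcc1 rose 1.21-fold (adjusted p = 0.0414). Ranbp2, the large protein of the cytoplasmic filaments, did not pass (log2 change 0.15, adjusted p = 0.157).

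A further list held other carriers and Ran cofactors. Among its 8 tested genes limma called 0 higher and 0 lower (median 0.06), with 2 at an unadjusted p under 0.05, and edgeR, DESeq2 and limma-voom called 0. Nutf2, which returns Ran to the nucleus, had a log2 change of 0.35 (adjusted p = 0.106). Among 20 genes of messenger RNA export 3 rose, 1 fell and 16 missed the threshold (median 0.10), or 15% and 5% beside the 15.2% and 12.3% of all tested genes that rose and fell. The 2 with the smallest adjusted p were Nxt2, a cofactor of the export receptor, which fell 1.30-fold (adjusted p = 0.0249), and Thoc3, a subunit of the THO complex, which rose 1.27-fold (adjusted p = 0.041). Nxf1, the main export receptor for messenger RNA, was at 2502 and 2517 in the controls and at 2556 and 2469 in the knockouts and did not pass.

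Per kb of exon, which allows levels of different genes to be set side by side, the most abundant transport genes in the controls were Ranbp1 with 1340 normalized counts per kb, Ran with 1193 and Kpnb1 with 849.8. In the knockouts the same 3 stood at 1752, 1614 and 1269. At the lower end in the controls were Nup35 with 33.8, Nup62cl with 4.11 and Nup210l with 1.54. Among the nucleoporins Nup50 was the most abundant, at 503 in the controls and 556 in the knockouts, and Nup62 came next, at 375 and 443. Lengths are those of all annotated exons of a gene in GENCODE M21, so genes with long or rarely used exons are understated. Exons of 17 of the 49 genes overlap those of another annotated gene, and the overlap is over 10% of the exon length in 3 of them. It is 55.3% for Ipo4 and 16.9% for Ranbp1 with a gene model on the same strand, and 10.6% for Tnpo2 on the opposite strand. The levels of Ipo4 and Ranbp1 are therefore uncertain whatever the strand setting, and that of Tnpo2 because the setting is unknown.

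**Figure D3:**
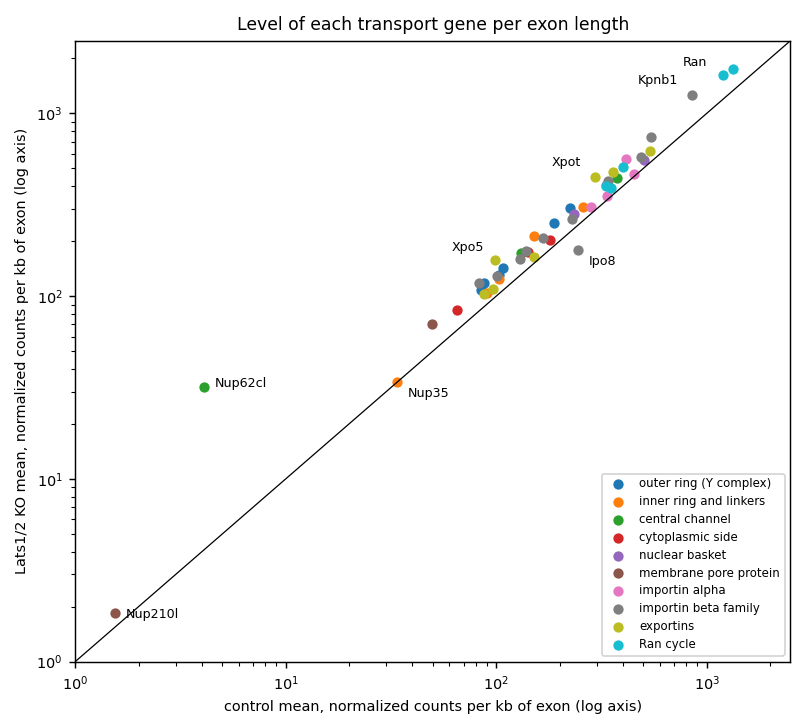
Mean level of each of the 49 genes in the knockouts (y axis) against the controls (x axis), both as normalized counts per kb of exon on log axes, with colours for the roles and a line of equal level. Nearly all points run just above the line over the whole range, Ipo8 lies below it, Nup35 on it, and Nup62cl at 4.11 and 31.7 is farthest from it.

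Promoters were read because most of these genes moved the same way. RefSeq windows of 300 bases, from 250 before to 50 after a gene's start on GRCm38.p6, were at hand for 39 of the 49 genes, 46 windows in all. Shown are Xpo5, the largest rise after Nup62cl, Ran, Ipo8, the gene that fell, and Nup62cl, the largest rise. The window of Ran held both the full NRF1 repeat and the E-box defined below. They lie at chr17:46202561-46202860 (plus strand), chr5:129019906-129020205 (plus), chr6:148831418-148831717 (minus) and chrX:140062519-140062818 (minus). Capitals mark matches on either strand to the motifs spelled out after the sequences.
Xpo5: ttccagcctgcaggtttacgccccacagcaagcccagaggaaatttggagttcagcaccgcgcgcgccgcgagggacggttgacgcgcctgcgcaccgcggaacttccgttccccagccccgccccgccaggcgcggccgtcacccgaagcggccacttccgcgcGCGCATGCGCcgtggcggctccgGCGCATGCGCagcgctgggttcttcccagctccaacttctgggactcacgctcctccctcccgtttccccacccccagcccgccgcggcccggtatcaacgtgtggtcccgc
Ran: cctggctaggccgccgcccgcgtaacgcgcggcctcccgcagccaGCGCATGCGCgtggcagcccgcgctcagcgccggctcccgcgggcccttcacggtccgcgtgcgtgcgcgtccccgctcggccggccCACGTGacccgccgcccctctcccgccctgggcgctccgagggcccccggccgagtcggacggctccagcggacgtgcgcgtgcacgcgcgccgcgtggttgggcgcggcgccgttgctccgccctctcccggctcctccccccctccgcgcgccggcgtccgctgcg
Ipo8: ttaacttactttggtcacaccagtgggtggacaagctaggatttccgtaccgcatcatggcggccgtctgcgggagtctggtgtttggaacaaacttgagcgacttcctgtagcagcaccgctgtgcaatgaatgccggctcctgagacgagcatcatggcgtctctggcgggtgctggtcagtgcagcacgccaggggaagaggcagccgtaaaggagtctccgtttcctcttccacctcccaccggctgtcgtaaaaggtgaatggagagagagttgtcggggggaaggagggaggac
Nup62cl: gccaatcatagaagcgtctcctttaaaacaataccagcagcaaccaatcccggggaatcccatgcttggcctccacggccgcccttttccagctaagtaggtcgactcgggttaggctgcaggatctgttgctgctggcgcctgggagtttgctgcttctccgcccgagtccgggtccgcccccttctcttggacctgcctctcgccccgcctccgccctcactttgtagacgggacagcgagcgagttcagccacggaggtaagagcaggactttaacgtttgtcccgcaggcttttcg
The motifs, searched with results of the study known, were the NRF1 site as the full inverted repeat GCGCATGCGC and as its core GCGCATG, the E-box CACGTG, the ETS site CCGGAAG and the TEAD site GGAATG. The core was added after the share of the full repeat had been seen, lies within it and overlaps its own reverse complement there; no other of these motifs lies within another. NRF1 is an activator of many housekeeping promoters, E-boxes are bound by MYC among others, and TEAD factors are the DNA-binding partners of YAP and TAZ. The full NRF1 repeat was in 5 of 46 windows (10.9%), those of Nup107, Nup50, Nup62, Ran and Xpo5, beside 0.971% of all windows and 1.77% of those of tested genes. The core was in 10 of 46 windows (21.7%), beside 3.91% of all 32851 windows and 6.0% of those of tested genes. Of the 10 genes with it 6 rose, namely Xpo5, Xpot, Ran, Ranbp1, Rcc1 and Nup107, and 4 did not pass, namely Nup50, Nup62, Nup133 and Nup188. Beside these 6 of 10, 61.2% of all 49 transport genes rose, a share that also counts the genes without a window. The E-box was in 9 windows (19.6%), beside 7.15% of all and 9.38% of those of tested genes. The TEAD letters were in 6 windows (13.0%), beside 14.7% and 12.6%, and the ETS letters in 7 (15.2%), beside 8.86% and 15.2%. The median GC content was 64.5% in the windows of transport genes, 60% in those of tested genes and 52.7% in all, and its part in these shares was not tested. The full inverted repeat stood in 2 places in Xpo5 and in 1 place in Ran, beside an E-box. Ipo8 and Nup62cl held none of these motifs in these windows.

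Lists of proliferation genes and cell type markers were read beside the transport genes. Of all tested genes 15.2% rose and 12.3% fell, and of those at or above the median level 22% and 13.3%. Of 13 proliferation genes 7 rose, 0 fell and 6 did not pass (median 0.32), and their summed level was 20040.4 and 19907 normalized counts in the controls and 25457 and 23255 in the knockouts. Mki67 went from 3964 and 4066 to 5969 and 4827, while Mcm2, which did not pass, had a log2 change of -0.18. Of 8 epithelial genes 4 rose, all keratins (Krt8, Krt18, Krt19 and Krt20), and the sum was 145914 and 136928 in the controls and 200628 and 203239 in the knockouts. Fibroblast genes summed to 21030.0 and 19310.3 in the controls and 17259.9 and 15400.1 in the knockouts, with 3 of 6 lower. The immune list had 5 of 7 tested genes lower, with sums of 16526 and 16284 against 9498 and 12329. Smooth muscle genes, 0 of 7 past the limma test, ranged from 29453 to 31669 in the controls and from 24268 to 32883 in the knockouts. Endothelial genes had 2 of 5 lower, with sums of 3577 and 4244 against 3269 and 2944. Of the neuron and glia list 1 of 6 fell, S100b, from 2035 and 2240 to 299 and 401. With it the list summed to 2609 and 2927 against 866 and 845, and the other 5 genes, none past the test, to 574 and 687 against 567 and 444. Erythroid genes, 0 of 3 past the test, ranged from 2791 to 4803 in the controls and from 2617 to 4412 in the knockouts. Of the smooth muscle and erythroid genes 0 had an unadjusted p under 0.05, and edgeR and DESeq2 called 0. No marker of these lists was at 0 in all libraries. The part of proliferation or of tissue composition in the change of the transport genes was not tested.

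**Figure D4:**
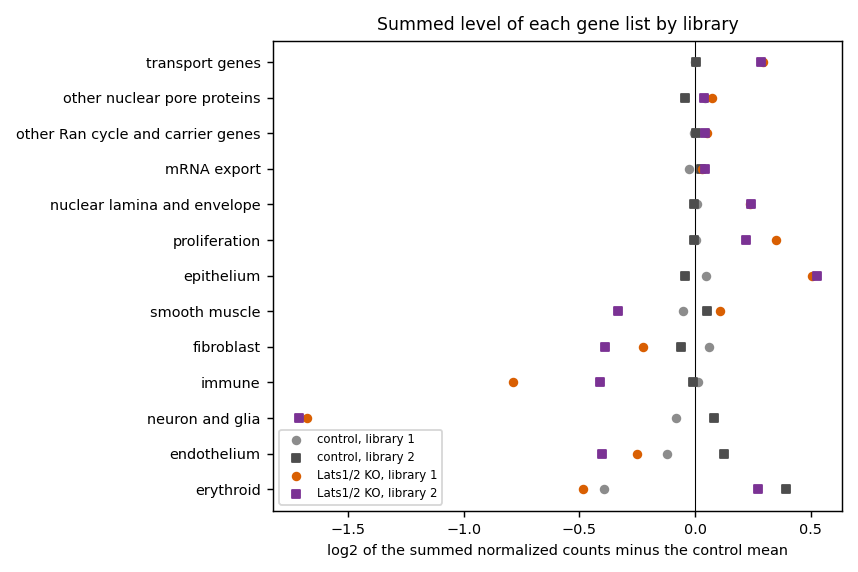
Summed normalized counts of each gene list in each library, as log2 minus the mean of the 2 control libraries (x axis), with the transport genes in the top row. The transport, proliferation, epithelium (through its keratins) and lamina lists lie to the right of the controls in both knockouts. So do, by less, the mRNA export list and the list of other Ran cycle and carrier genes. The fibroblast, immune, endothelium and neuron and glia lists lie to the left, the last through S100b for the most part. The groups overlap for the lists of other nuclear pore proteins, smooth muscle and erythroid genes.

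The genes whose profile over the 4 libraries lay closest to the mean profile of the transport genes, by Euclidean distance of centred log2 values, were Arhgef12, Dnttip2, Pitrm1, Bub1 and Vdac2. Their distances were 0.00927 to 0.0174. Bub1, a mitotic checkpoint kinase, had 538 and 536 normalized counts in the controls and 701 and 670.5 in the knockouts, and Vdac2, a channel of the outer mitochondrial membrane, 11555 and 11561 against 14782 and 14408.

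**Figure D5:**
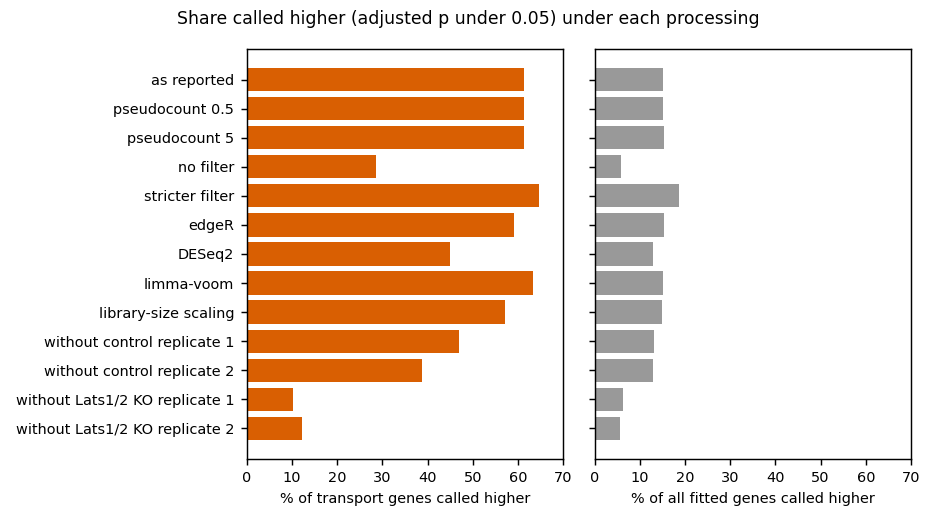
Share of genes called higher at an adjusted p of 0.05 (x axes, in percent) as reported and in each of the 12 alternative fits (y axis), for the transport genes on the left and for all fitted genes on the right. The transport genes fell from 61.2% to 10.2% and 12.2% when either Lats1/2 KO library was left out, and the share of all genes fell from 15.2% to 6.27% and 5.53%.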

How the data were processed

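Whole small intestine at postnatal day 8 was profiled by RNA-seq in 2 control and 2 Lats1/2 KO samples. The submitters' processing notes name STAR, featureCounts, DESeq2 and GRCm38, with no versions, roles or strand setting. Per the file headers and values, the deposited signal is gene counts divided by the authors' size factor of each library. All values (100%) were whole multiples of the smallest in their column within 0.001 reads, so reads could be recovered. The authors' deposited table also held their log2 changes, the linear ratio and adjusted p-values.

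Genes with at least 10 normalized counts in at least 2 libraries (16415) were fitted with limma 3.58.1 in R 4.3.3 on log2(normalized count + 1), with a mean-variance trend and Benjamini-Hochberg adjustment over all of them (threshold 0.05). Changes on this scale are understated at low levels. The spread had 2 residual and 3.53 prior degrees of freedom. No label says that each sample was its own animal, so the spread may be technical. Columns name a group, not a sample, so libraries were numbered in column order. Alternatives included edgeR 4.0.16, DESeq2 1.42.0 and limma-voom on recovered reads. The fits were tested on simulated counts.

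The genes and lists were chosen with earlier results of these data known. Library values are given for up to 3 genes past the threshold per role (smallest adjusted p), those with a log2 change of 0.5 or more in size, and Nup62cl, Nup205, Kpna2, Kpnb1, Ran and Xpo1, and up to 2 genes past the threshold with the smallest adjusted p of each of 4 pathway lists are named. Other genes were named after their values were seen.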

Additional observations from a re-analysis of the deposited data

How the results depend on the processing

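Calls among the 49 transport genes, 30 higher and 1 lower, were within 1.5 times of those counts with pseudocounts of 0.5 and 5, the stricter filter, edgeR, DESeq2, limma-voom and scaling by library size, at 22 to 31 higher and 1 lower. With no filter 14 rose, and 1318 of all genes were lower in place of 2017. With 1 library left out in turn, 5 to 23 transport genes rose and 0 to 1 fell, 908 to 2171 of all genes were higher and 864 to 1612 lower, and the median log2 change of the transport genes was 0.297 to 0.326. In these fits the lone library of a group is assumed to vary like the others. Of 288 checks of the 24 transport genes chosen by rule for library values, 57 lost the call and 0 turned direction. These 24 were mostly chosen for a small adjusted p, and Xpo1 among them had no call to lose. The called genes outside the 24, such as Xpo6 and Tnpo1, lost their call in a larger share of the fits. Nup35 and Nup210l, also outside the 24 and not past the test, turned below 0 in 4 of 12 and 2 of 11 fits. The log2 change of Lats2 ran from -0.141 to 0.0758, above 0 without control replicate 2 (0.00258) and without Lats1/2 KO replicate 2. No paired analysis was possible because the columns carry no replicate number of the labels.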

Other observations

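The nuclear lamina and envelope list, 14 genes tested, held 3 genes that rose, 0 that fell and 11 that did not pass, with a median log2 change of 0.12. The 21.4% that rose stand beside 15.2% of all tested genes and 22% of those at or above the median level. Lmna, which encodes the A-type lamins, had 986 and 909 normalized counts in the controls and 2141 and 2252 in the knockouts, a 2.32-fold rise (adjusted p = 0.000765 by limma). Lmnb1, lamin B1, went from 1894 and 1857 to 2739 and 2806, 1.48-fold (adjusted p = 0.0031). Both kept their calls in all 12 alternative fits. Lbr, the lamin B receptor, rose 1.23-fold (adjusted p = 0.0248). Lmnb2, the other B-type lamin, had a log2 change of -0.05 (adjusted p = 0.681), and the linker genes Sun1 and Sun2 had log2 changes of 0.14 and 0.16 and did not pass.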
